A study of Mus musculus with 18 samples.

Results

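The circRNAs described here come from the genes Srebf2 and Maml2, which are measured by 2 of the 14236 circRNA probes of an m6A array. They are ASCRP4004535, which reports mmu_circRNA_28863 of Srebf2 on chromosome 15, and ASCRP4002701, which reports mmu_circRNA_43775 of Maml2 on chromosome 9. Both circRNAs are annotated as exonic. The pair was selected on the m6A levels of the 7d group and the 3d group, which moved in opposite directions, and because both parental genes regulate transcription. The levels of 7d vs. 3d, and every other measure of that contrast, are therefore given as a description without a test.

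The cortex was taken from C57BL/6J mice of 10 weeks, with 3 samples in each of 3 groups. In the 3d group and the 7d group, the left distal middle cerebral artery was permanently occluded (MCAO), the bilateral common carotid arteries were closed for some minutes, and the tissue around the infarct was collected 3 or 7 days later. The sham group had the surgery without the occlusion of the middle cerebral artery, and the day of its collection was not used here. Total RNA of each sample was divided by an anti-m6A antibody into a bound fraction (IP, labeled with Cy5) and an unbound supernatant (Sup, labeled with Cy3), both fractions were treated with RNase R, and both were hybridized to one array, which gave 9 arrays. Nothing in the labels ties a sample to 1 mouse or to a pool of mice, so that P values measure the spread between these samples, which may be technical. IP always carried Cy5 and Sup always Cy3, so that dye and fraction cannot be told apart. The 3d arrays and the 7d arrays lay in different rows of one slide, and the sham arrays lay on another slide, so that slide and sham group cannot be told apart.

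Srebf2 encodes SREBP-2, a membrane-bound transcription factor that is cut free when sterols are scarce and that switches on the genes of cholesterol synthesis and uptake. In the brain, cholesterol is made locally, and much of it is found in myelin. Maml2 encodes a Mastermind-like coactivator, which joins the intracellular part of Notch and its DNA-binding partner on target genes. CircRNAs arise by back-splicing, in which a downstream splice donor joins an upstream acceptor, and the closed ring resists RNase R. Neither SREBP-2 nor Maml2 protein was measured. In RNA from bulk cortex tissue, fewer cells of a type and less of a circRNA in each cell cannot be told apart.

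In Sup, sham replicate 3 was closer to 2 of the 3d arrays than to either of the other sham arrays, while its highest correlation in IP and in the level was with sham replicate 2. Over the tested circRNA probes, the Spearman correlation of its Sup intensities was 0.976, 0.974 and 0.948 with the 3d arrays, 0.959 and 0.969 with the other sham arrays, and between 0.908 and 0.938 with the 7d arrays. In IP the correlation was 0.864, 0.899 and 0.934 with the 3d arrays and 0.924 and 0.956 with the other sham arrays, and in the m6A level it was 0.784, 0.823 and 0.794 with the 3d arrays and 0.788 and 0.917 with sham replicates 1 and 2. Its value was nearer the 3d mean than the mean of the other sham arrays for 41.1% of the probes in Sup, 20.6% in IP, 35.9% in expression and 42.8% in the level. Whether its label is right could not be settled from the files. Results that rest on the sham group are given with and without this array. As it was singled out in these same data, P values without it are a description and no test. The probe signals of the array medians were between 36.5 and 50 for IP and between 53 and 78.5 for Sup, and no circRNA spot was saturated. Of 22 marker genes of brain cell types, the mRNA probes that could be named held only Mbp, which encodes a myelin protein of oligodendrocytes, and its Sup signal was well above background on all 10 spots of every array. The Sup signal of Mbp was between 128 and 166 on 8 arrays and 233 on 7d replicate 3, where IP was 152 against 57.7 to 93.3 on the others. The median m6A level of the tested probes was also highest on 7d replicate 3, at 42.3% against 32.7% to 36.3%, and the part of this array's difference in the results was not tested.

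Srebf2 circRNA was higher in the supernatant at 3 days than at 7 days. Its Sup intensity, normalized to spike-in RNA and given in arbitrary units, was 2545, 3027 and 6216 on the 3d arrays, 286, 446 and 294 on the 7d arrays, and 220, 278 and 1662 on the sham arrays (replicates 1 to 3). All 3d values lay above all other values, and the value of sham replicate 3 lay between the 3d group and the remaining arrays. The means were 3929 ± 1995 on the 3d arrays, 342 ± 90.0 on the 7d arrays and 720 ± 817 on the sham arrays (SD, n = 3 each). The sham mean without replicate 3 was 249 ± 41.3 (SD, n = 2).

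The bound fraction of Srebf2 circRNA moved in the same direction as the supernatant and by less. Its IP intensity was 321, 380 and 581 on the 3d arrays, 131, 147 and 178 on the 7d arrays, and 128, 131 and 203 on the sham arrays. Sham replicate 3 was again the highest of the sham arrays, and all 3d values exceeded it. The fitted difference of 7d vs. 3d was -1.45 on the log2 scale in IP (a 2.74-fold decrease) and -3.44 in Sup (a 10.9-fold decrease). The scanner intensities before any correction showed the same order, with Sup at 1235, 1662 and 4022 on the 3d arrays and at 146, 239 and 148 on the 7d arrays over local backgrounds of 16 to 18.

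Maml2 circRNA ran the other way. Its Sup intensity was 426, 383 and 658 on the 3d arrays, 1840, 1497 and 1321 on the 7d arrays, and 1955, 1753 and 294 on the sham arrays. The 3d values and that of sham replicate 3 were all below the other 5 arrays. The means were 489 ± 148 on the 3d arrays, 1553 ± 264 on the 7d arrays and 1334 ± 906 on the sham arrays (SD, n = 3 each), and the sham mean without replicate 3 was 1854 ± 143 (SD, n = 2).

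The bound fraction of Maml2 circRNA changed little beside its supernatant. Its IP intensity was 96.6, 104 and 124 on the 3d arrays, 139, 138 and 186 on the 7d arrays, and 184, 141 and 95.4 on the sham arrays. The 3d values lay below the 7d values, and the lowest IP value of the 9 arrays was that of sham replicate 3. The fitted difference of 7d vs. 3d was 0.50 on the log2 scale in IP (1.41-fold) and 1.69 in Sup (3.24-fold). In both channels both probes were well above background on all 9 arrays, although the scanner IP intensity of Maml2 circRNA was between 59 and 102 on the 3d arrays against a local background of 21 to 22.

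**Figure D1:**
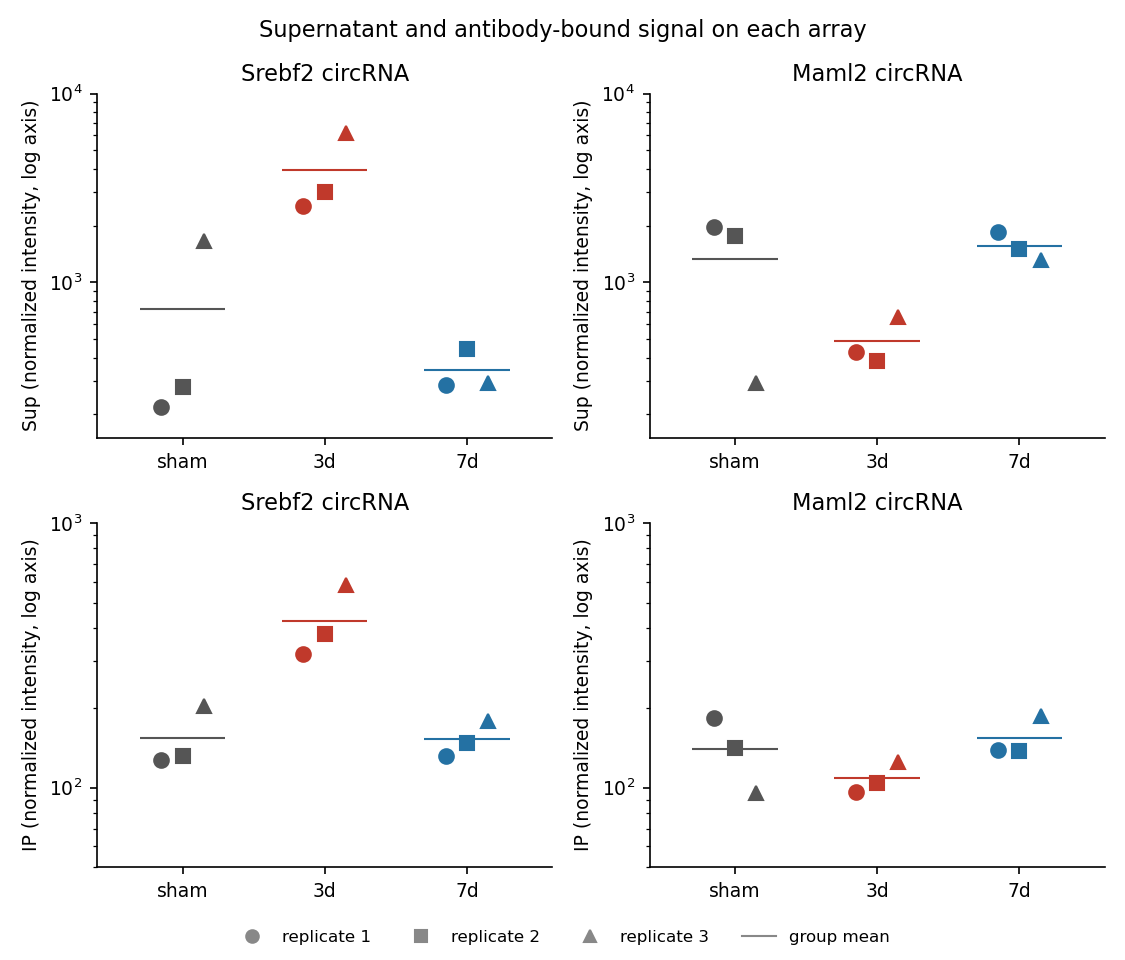
Normalized Sup (upper panels) and IP intensity (lower panels, log axes, arbitrary units) of Srebf2 circRNA (left) and Maml2 circRNA (right) in the sham, 3d and 7d groups. Each symbol is one array and each line is the mean of 3 arrays. Sup of Srebf2 circRNA was 2545 to 6216 on the 3d arrays and 286 to 446 on the 7d arrays, while Sup of Maml2 circRNA was 383 to 658 and 1321 to 1840, and sham replicate 3 (triangle) lay above both other sham arrays for Srebf2 and below both for Maml2.

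The m6A level is the share of the IP intensity in the sum of IP and Sup. For Srebf2 circRNA it was 11.2%, 11.2% and 8.54% on the 3d arrays, 31.5%, 24.8% and 37.7% on the 7d arrays, and 36.7%, 32.0% and 10.9% on the sham arrays. The 3d group and the 7d group did not overlap, and sham replicate 3 lay among the 3d values. Sham replicates 1 and 2 lay among the 7d values with this processing. With the deposited log2 values they lay above all 7d values, at 45.2% and 39.0% against at most 38.1%. The group means were 10.3% ± 1.52, 31.3% ± 6.47 and 26.5% ± 13.8 (SD, n = 3 each), and the sham mean without replicate 3 was 34.4% ± 3.31 (SD, n = 2). The fitted level was 3.02-fold higher on the 7d arrays than on the 3d arrays, the second largest increase of 12211 tested probes. The selection used the published values of this contrast, which were calculated in another way than this fit. As the level depends on the ratio of IP to Sup, it rises where both fall but Sup falls by the larger factor, as was the case here.

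Maml2 circRNA had a level of 18.5%, 21.4% and 15.9% on the 3d arrays, 7.01%, 8.42% and 12.3% on the 7d arrays, and 8.59%, 7.47% and 24.5% on the sham arrays. The 3d values lay above the 7d values, sham replicates 1 and 2 lay among the 7d values, and sham replicate 3 exceeded all other arrays. The means were 18.6% ± 2.74, 9.25% ± 2.76 and 13.5% ± 9.51 (SD, n = 3 each), with a sham mean of 8.03% ± 0.793 without replicate 3 (SD, n = 2). The fitted level was 2.05-fold lower on the 7d arrays than on the 3d arrays, which was the largest decrease among the 12211 probes in this fit. The contrast is again that of the selection. The median of all tested probes moved by 0.19 on the log2 scale between these groups, and relative to it the levels of Srebf2 and Maml2 circRNA differed by 1.41 and -1.22.

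Expression, the sum of IP and Sup, followed the supernatant for both circRNAs. That of Srebf2 circRNA was 2865, 3407 and 6796 on the 3d arrays, 418, 593 and 471 on the 7d arrays, and 347, 409 and 1865 on the sham arrays. That of Maml2 circRNA was 522, 487 and 782 on the 3d arrays, 1979, 1635 and 1507 on the 7d arrays, and 2138, 1894 and 390 on the sham arrays. Among the tested probes of the same array, expression of Srebf2 circRNA was at percentiles 95.7, 96.2 and 96.8 on the 3d arrays. On the 7d arrays it was at percentiles 78.1, 83.3 and 75.1, so that it was lower there but still above most probes. For each circRNA, the group with the higher expression had the lower m6A level, and sham replicate 3 was on the side of the 3d group in both measures. Between 3 and 7 days the fitted expression of Srebf2 circRNA fell by 3.05 on the log2 scale (8.28-fold), and that of Maml2 circRNA rose by 1.54 (2.90-fold). Sum and share were calculated from the same intensities, so that their opposite movement is not a separate observation.

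**Figure D2:**
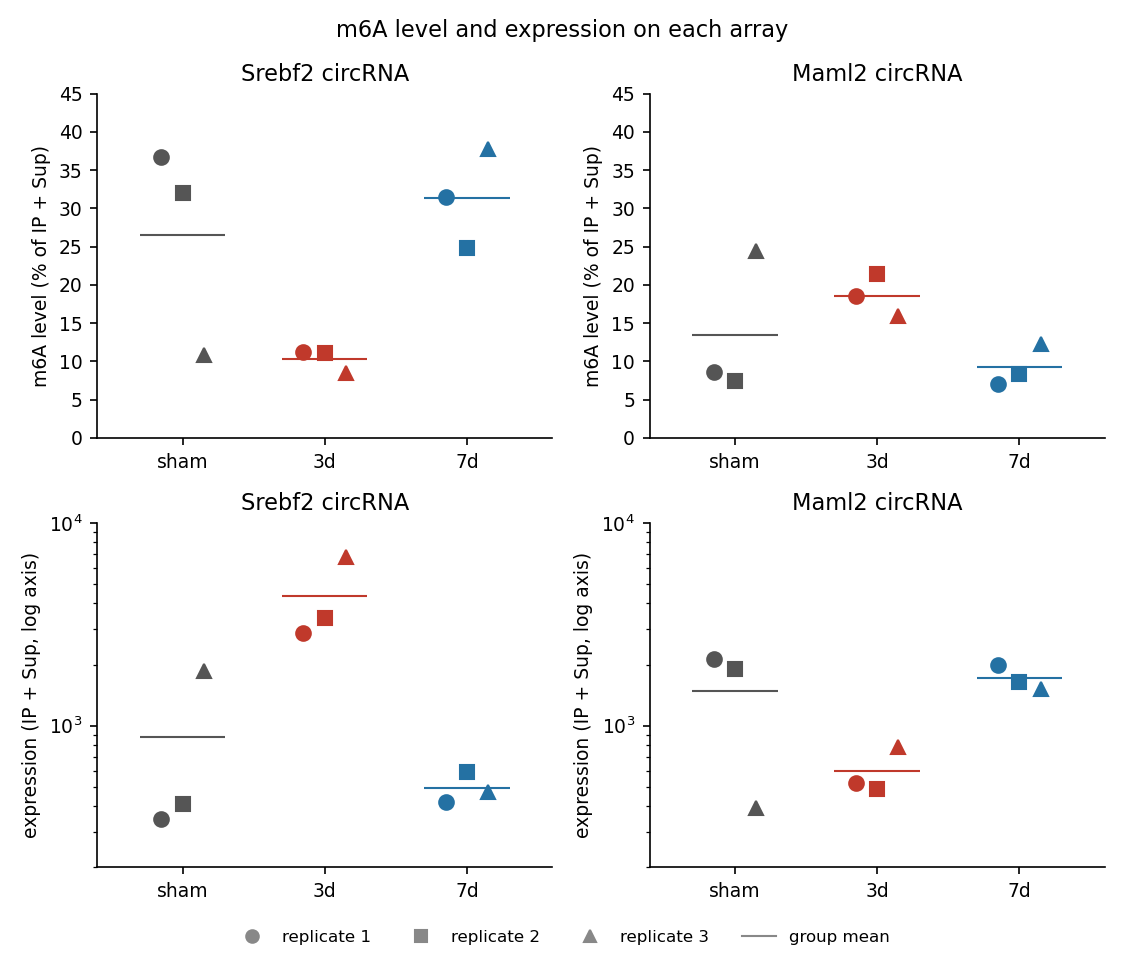
m6A level (upper panels, % of IP + Sup, axis from 0) and expression (lower panels, IP + Sup in arbitrary units, log axes) of Srebf2 circRNA (left) and Maml2 circRNA (right). Each symbol is one array and each line is the mean of 3 arrays. The level of Srebf2 circRNA was 8.54% to 11.2% on the 3d arrays and 24.8% to 37.7% on the 7d arrays, that of Maml2 circRNA was 15.9% to 21.4% and 7.01% to 12.3%, and sham replicate 3 lay at 10.9% and 24.5%.

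The position of each circRNA among the levels of all tested probes on the same array does not depend on how the channels were scaled to each other from array to array. The level of Srebf2 circRNA was at percentiles 1.16, 1.20 and 0.280 on the 3d arrays, 24.3, 13.4 and 20.2 on the 7d arrays, and 72.7, 39.2 and 2.28 on the sham arrays. It was thus among the lowest levels of the array on the 3d arrays and on sham replicate 3. The level of Maml2 circRNA was at percentiles 5.22, 9.10 and 3.77 on the 3d arrays, 0.287, 0.737 and 1.19 on the 7d arrays, and 0.516, 0.533 and 17.9 on the sham arrays. It was among the lowest levels on the 7d arrays and on sham replicates 1 and 2.

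The pair was also compared on each array by the difference between its probes. The log2 difference of the probes (Srebf2 minus Maml2) has no meaning as a size, because probes differ in brightness, and it was therefore centered on its mean over the 9 arrays, which leaves only the change between arrays. In Sup the centered difference was 2.70, 3.11 and 3.36 on the 3d arrays, -2.56, -1.62 and -2.05 on the 7d arrays, and -3.03, -2.53 and 2.62 on the sham arrays. In IP it was 1.04, 1.17 and 1.53 on the 3d arrays, -0.77, -0.60 and -0.76 on the 7d arrays, and -1.22, -0.80 and 0.40 on the sham arrays. A shift of a whole channel cancels in these values. The difference also changes where only Srebf2 or only Maml2 circRNA moves, so it does not show that both moved. Relative to the median change of all tested probes, 7d vs. 3d in IP was -1.68 for Srebf2 and 0.27 for Maml2 circRNA on the log2 scale. In Sup the values were -3.42 and 1.72. Sham replicate 3 had the sign of the 3d arrays in both channels, and the other sham arrays had that of the 7d arrays.

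**Figure D3:**
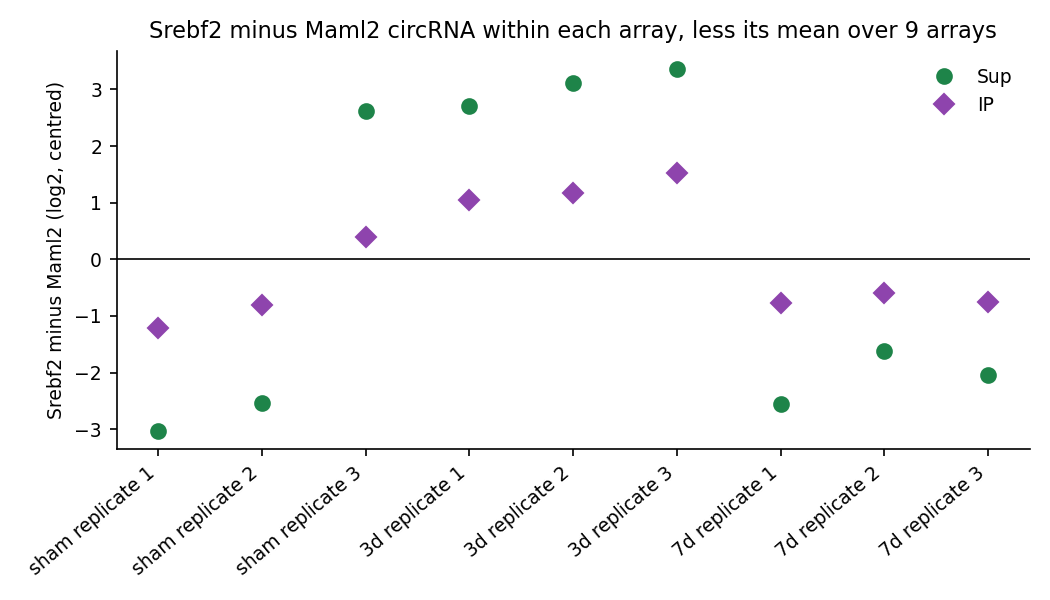
Log2 intensity of the Srebf2 probe minus that of the Maml2 probe on each of 9 arrays, less the mean over the arrays, for Sup (circles) and IP (diamonds). In Sup the 3d arrays lay between 2.70 and 3.36 and the 7d arrays between -2.56 and -1.62, and sham replicate 3 lay at 2.62 while the other sham arrays lay at -3.03 and -2.53.

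To ask whether the circRNAs differed between infarct and sham irrespective of the day, the mean of both infarct groups was compared with the sham group (MCAO vs. sham) in a limma fit of all 9 arrays. The coefficients of this contrast are orthogonal to those of the selection, although the spread within the 3d and 7d groups entered both. The values of these groups also entered both, and level, expression, IP and Sup come from the same intensities. The P values of this comparison are therefore not independent of the selection. The call required more than a 1.5-fold difference together with an unadjusted P under 0.05. By this rule 0.311% of the 12211 tested probes were called in the level, 0.876% in expression, 2.26% in IP and 0.712% in Sup, and 0, 5, 1 and 3 probes passed a Benjamini-Hochberg adjusted P of 0.05. The median change of all tested probes in this comparison was 0.07 in the level, 0.19 in expression, 0.29 in IP and 0.15 in Sup on the log2 scale. Fits without sham replicate 3 are given as a description. That array was singled out in these same data, and leaving it out narrows the sham spread of both circRNAs.

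The m6A levels of the pair were not called in MCAO vs. sham. That of Srebf2 circRNA differed by a log2 value of -0.40 ± 0.34 (SE), with a 95% confidence interval from -1.15 to 0.36 and an adjusted P of 0.547 in limma. That of Maml2 circRNA differed by 0.15 ± 0.34 (SE), with an interval from -0.62 to 0.91 and an adjusted P of 0.806 in limma. Both intervals include changes of more than 1.5-fold. Without sham replicate 3, the level of Srebf2 circRNA differed by -0.95 (an unadjusted P of 0.000208 in limma) and that of Maml2 circRNA by 0.69 (an unadjusted P of 0.00583), and both were called among 0.704% of the probes, with an adjusted P of 0.514 for each. Without sham replicate 1 or 2 the level of Maml2 circRNA turned to -0.07 or -0.17.

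Expression of Srebf2 circRNA was called as higher in MCAO vs. sham. It differed by a log2 value of 1.13 ± 0.36 (SE), a 2.19-fold increase with a 95% confidence interval from 0.39 to 1.87, an unadjusted P of 0.00425 and an adjusted P of 0.567 in limma. Relative to the median change of all probes, the difference was 0.94. The 3 arrays of the 3d group exceeded every sham array, whereas none of the 7d arrays was above the sham mean, so that the direction was seen in 3 of 6 arrays. The difference was 1.90 without sham replicate 3, where the adjusted P of 0.00232 in limma is a description and no test. It was no longer called without sham replicate 1 (0.69, with an unadjusted P of 0.0718 in limma) or without 7d replicate 3 (1.14, with an unadjusted P of 0.0952). The call was also lost with each channel centered on its median circRNA (0.83). It was lost without background correction (1.07) and with background correction by normexp without an offset (1.24). It was lost with the processed signals of the scanner software (1.25) and the deposited log2 values (1.26). The methods' test, with the 6 infarct arrays as a single group, did not call it either (1.47, with an unadjusted P of 0.346). The paper compared each day with sham separately. In a single group the difference between the days counts as spread, and its part in the lost call was not tested.

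Both fractions of Srebf2 circRNA were called in the same direction. IP differed by a log2 value of 0.73 ± 0.23 (SE, adjusted P = 0.404 in limma), or by 0.44 relative to the median change, and Sup by 1.24 ± 0.43 (SE, adjusted P = 0.692 in limma), or by 1.09. All 3 IP values of the 3d group were above the highest sham value, and those of the 7d group lay within the sham range. Without sham replicate 3, the difference in Sup was 2.16 (adjusted P = 0.000159 in limma, as a description). The call in Sup was lost without sham replicate 1 (0.70) or 7d replicate 3 (1.29). The call in Sup was also lost with median centering (1.09), all spike-in probes (1.12), loess (1.14) and no background correction (1.17). It was lost too with normexp without an offset (1.35) and the methods' test (1.57). The call in IP was lost with median centering (0.41) and the methods' test (0.91). The methods' test again took both days as a single group.

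Maml2 circRNA was not called in expression, IP or Sup. The differences were -0.23 ± 0.34, -0.08 ± 0.23 and -0.23 ± 0.39 on the log2 scale (SE, adjusted P = 0.692, 0.798 and 0.784 in limma). In expression the 3d arrays were below the sham mean and the 7d arrays above it, and all 6 lay within the sham range, which sham replicate 3 widened to 390 at its lower end. Without that array, expression differed by -1.02 (an unadjusted P of 0.000173 and an adjusted P of 0.265 in limma). Sup differed by -1.11 (adjusted P = 0.0415 in limma). Both were called, again as a description. The signs turned without sham replicate 1, to 0.21 in expression and 0.25 in Sup, and without sham replicate 2, to 0.12 and 0.17.

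**Figure D4:**
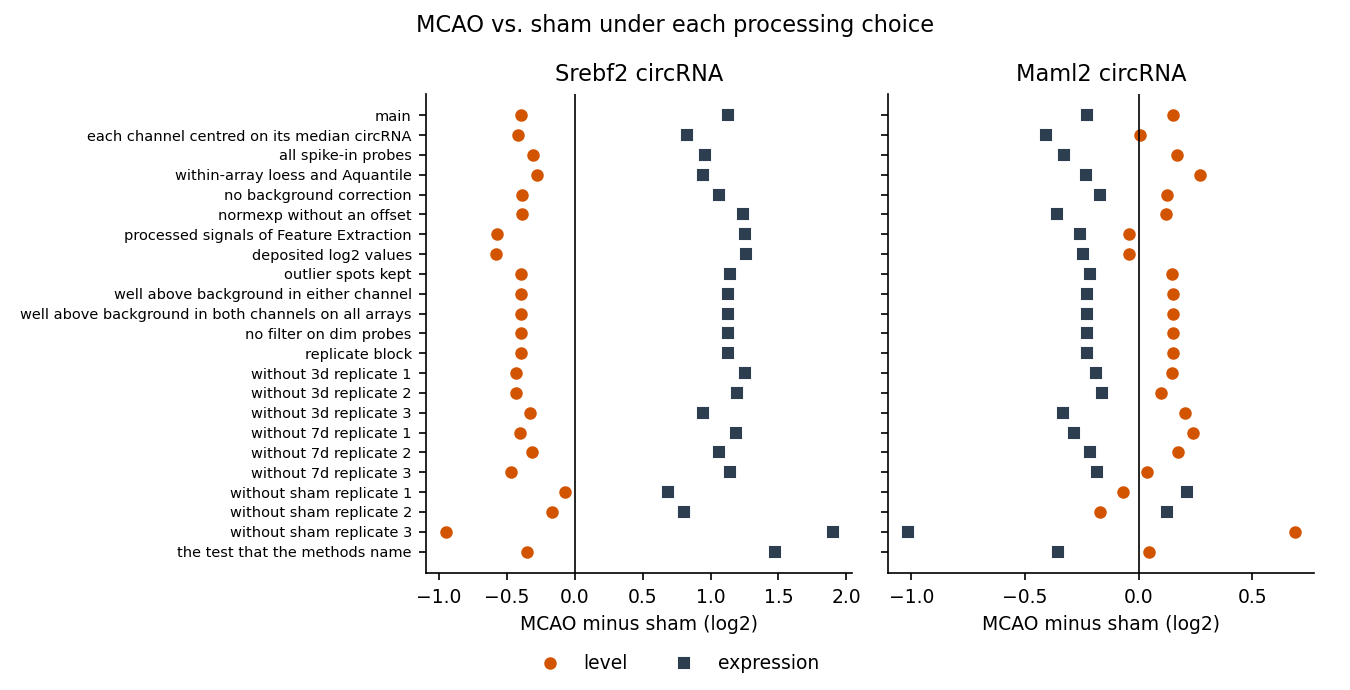
Log2 difference of MCAO minus sham in m6A level (circles) and expression (squares) of Srebf2 circRNA (left) and Maml2 circRNA (right), as reported (main, at the top) and under each other processing choice and each left-out array. The level of Srebf2 circRNA ranged from -0.95 to -0.07 and its expression from 0.69 to 1.90, and values of Maml2 circRNA crossed 0, with the farthest points of both circRNAs at the row without sham replicate 3.

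The days were also set against sham one at a time, as a description, because these comparisons share their arrays with the selection and their sham arrays with each other. At 3 days, Srebf2 circRNA differed from sham by a log2 value of 2.66 ± 0.41 in expression and -1.19 ± 0.39 in the level (SE), and Maml2 circRNA by -0.996 ± 0.394 and 0.67 ± 0.39. At 7 days the values were -0.39 ± 0.41 and 0.40 ± 0.39 for Srebf2 circRNA and 0.54 ± 0.39 and -0.37 ± 0.39 for Maml2 circRNA. Both circRNAs thus stood on opposite sides of the sham mean at 3 and 7 days. Without sham replicate 3, the 3d differences grew to 3.42 in expression and -1.75 in the level of Srebf2 circRNA and to -1.78 and 1.20 for Maml2 circRNA. The 7d differences then became 0.37 and -0.15 for Srebf2 circRNA and -0.25 and 0.17 for Maml2 circRNA, so that each changed its sign.

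The files name probes only by an identifier, and names could be joined for 54 probes, 18 of them in the published list of the circRNAs that changed most in m6A level between 7 and 3 days. In the order of the fitted level, Srebf2 circRNA stood between those of Fam135a (1.70 on the log2 scale) and Scn2a1 (1.48), with a value of 1.60. Scn2a1 encodes a neuronal sodium channel. Maml2 circRNA had the lowest value of the list at -1.04, next to that of Anks1b at -0.93, which encodes a postsynaptic protein.

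Scn2a1 circRNA was also the probe whose m6A level had the pattern most like that of Srebf2 circRNA, with a Pearson correlation of 0.991 over the 9 arrays on the log2 scale, among 12099 probes with all values. Its level was 11.03% ± 1.867 on the 3d arrays and 30.63% ± 2.767 on the 7d arrays (SD, n = 3 each), 31.1% in the mean of sham replicates 1 and 2, and 10.3% on sham replicate 3. The probes ASCRP4006245 and ASCRP4004315 followed with correlations of 0.989 and 0.984. In expression, the probes most like Srebf2 circRNA were ASCRP4007696, ASCRP4013685 and ASCRP4009063 (0.990, 0.984 and 0.982). All these arrays share 2 slides and fall into separated groups, and the coefficients describe a likeness only.

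The highest coefficients were lower for Maml2 circRNA. ASCRP4011505, ASCRP4007413 and ASCRP4004715 were most like it both in the level (0.935, 0.923 and 0.910) and in expression (0.948, 0.913 and 0.838). Expression of ASCRP4011505 was 266 on the 3d arrays, 481 on the 7d arrays, 433 in the mean of sham replicates 1 and 2, and 208 on sham replicate 3. These probes have no gene name here.

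Among the other named circRNAs from regulators of transcription or chromatin, Kat6a circRNA had its group means in the same order as Srebf2 circRNA between 3 and 7 days. Kat6a encodes a histone acetyltransferase, and the level of its circRNA was 15.97% ± 4.28 on the 3d arrays and 34.8% ± 5.31 on the 7d arrays (SD, n = 3 each), with 32.1% in the mean of sham replicates 1 and 2 and 13.5% on sham replicate 3. Its expression was 1843 ± 1231 on the 3d arrays and 454 ± 68.0 on the 7d arrays (SD, n = 3 each). The circRNAs of Creb3l3, Prdm10, Arid2, Pcgf5 and Cdk8, which encode transcription factors, a chromatin remodeling subunit, a Polycomb subunit and a Mediator kinase, differed between 7d and 3d by log2 values of 0.35, 0.27, 0.20, 0.17 and 0.07 in the level, where the median of all tested probes was 0.19. Their expression stayed between 187 and 276 in every group mean, and IP of Prdm10, Arid2, Pcgf5 and Cdk8 was well above background on none of the 7d arrays. The published list of 7d vs. 3d holds Arid2 and Pcgf5 circRNA as hypomethylated, a direction that the processing used here did not give. The part of the processing in this was not tested.

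**Figure D5:**
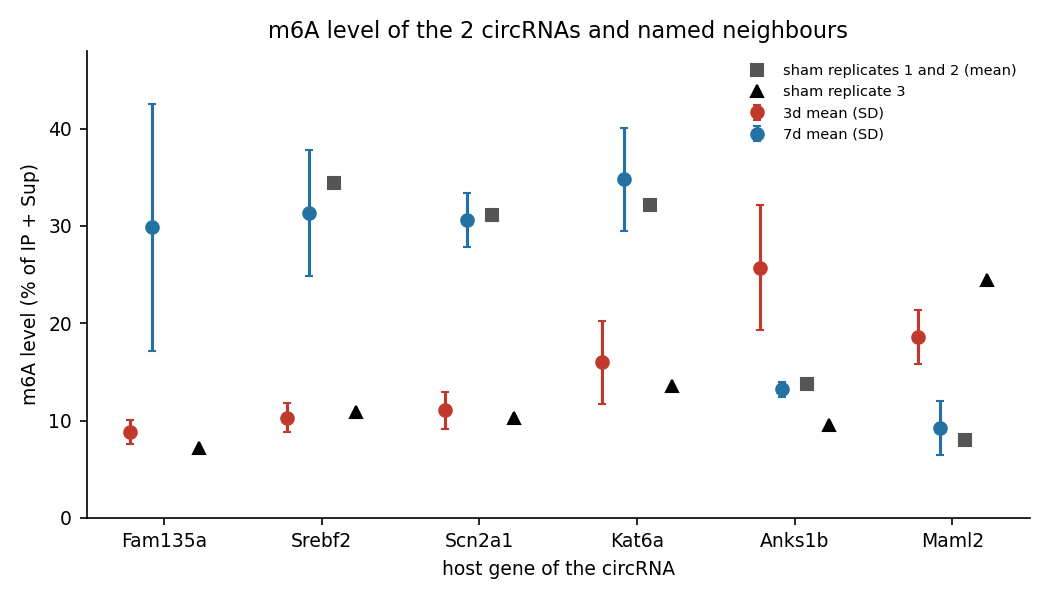
m6A level (% of IP + Sup, axis from 0) of Srebf2 and Maml2 circRNA, of the named circRNAs beside them in the order of the 7d vs. 3d level, and of Kat6a circRNA. Circles are means of the 3d and 7d groups with SD (n = 3, and n = 2 for the 7d group of Fam135a), squares are the mean of sham replicates 1 and 2 (not measured for Fam135a, whose spots were marked as outliers there), and triangles are sham replicate 3. Sham replicate 3 lay at 10.9%, 10.3% and 13.5% for Srebf2, Scn2a1 and Kat6a and at 24.5% for Maml2, near the 3d means, but at 9.56% for Anks1b, whose 3d mean was 25.7%.

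The place of sham replicate 3 was not the same for all circRNAs of that list. Its level was nearer the 3d mean than the mean of the other sham arrays for 10 of the 17 probes with a value on all sham arrays, 6 of 7 hypermethylated and 4 of 10 hypomethylated ones. Among all tested probes this held for 42.8%, as given above. The directions are those of the published list. With the processing used here, the hypomethylated Arid2, Ptp4a2, Pcgf5 and Tsc2 circRNAs had log2 level differences of 0.20, 0.19, 0.17 and 0.07 in 7d vs. 3d. The other hypomethylated ones had negative values, from -0.009 for Mtmr12 to -1.04 for Maml2. Where the 3d and 7d levels hardly differ, nearness to the 3d mean says little. No spot of the Srebf2 or Maml2 probe on this array was marked as an outlier.

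No mRNA probe that could be named on the array belonged to sterol regulation (20 genes) or to Notch signaling (24 genes), the pathways of SREBP-2 and Maml2, among 46 named of 50 mRNA probes. Whether linear Srebf2 or Maml2 mRNA, or their targets, moved with the circRNAs was not tested.

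The separation of the arrays was kept when the intensities were processed in other ways. With 9 ways of processing, the reported one included, the levels of the 3d and 7d groups overlapped in 0 of 9 for either circRNA, and the 3d arrays with sham replicate 3 lay apart from the other 5 arrays in 9 of 9, in the level and in expression. This count was made after the values were seen, on the same arrays, for a pair that was selected on these levels. The share of all tested probes for which it holds was not counted, so that it is no trait particular to the pair. The size of the level depended on the processing. With the deposited log2 values, the level of Srebf2 circRNA was 8.79%, 9.14% and 6.56% on the 3d arrays, 35.4%, 25.5% and 38.1% on the 7d arrays, and 45.2%, 39.0% and 8.03% on the sham arrays. With the same values, that of Maml2 circRNA was 12.3%, 18.7% and 10.7% on the 3d arrays, 3.93%, 5.53% and 5.80% on the 7d arrays, and 5.68%, 5.23% and 20.6% on the sham arrays. With each channel centered on its median circRNA, the level of Srebf2 circRNA was instead 20.7%, 20.8% and 16.2% on the 3d arrays. It was then 46.0%, 38.8% and 45.6% on the 7d arrays and 54.7%, 49.8% and 20.8% on the sham arrays. Sham replicates 1 and 2 thus lay above all 7d values of Srebf2 circRNA, as they did with loess, the processed signals and the deposited values. Their place beside the 7d group depended on the processing. The level is therefore read as a relative value.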

How the data were processed

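The titles of the records gave the groups. Per the file headers, the deposited intensity of each spot was measured by the authors in Agilent Feature Extraction 11.0.1.1. The deposited log2 values were made by the authors from its processed signals by subtracting a spike-in constant from each channel of each array, and this constant could be recovered from 10 spike-in probes among 102.

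Median pixel intensities were corrected with normexp (offset 50), spots marked as outliers were left out, spots of a probe were averaged, and each channel was shifted to one mean over these 10 probes, using limma 3.58.1 in R 4.3.3 with jsonlite 2.0.0. The offset reduces differences of dim probes. A circRNA probe was tested if both channels were well above background on at least 3 arrays, which left out 2025 of 14236 probes. Log2 values of all 9 arrays were fitted with lmFit and eBayes, and the fit was tested on simulated data. The number of arrays limits the precision.

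Names were joined by matching the direction and P value of 60 published entries to those calculated from the deposited processed signals (tolerance 6e-08), which gave exactly 1 probe for 59. The probes named were the pair, other listed transcription or chromatin regulators, neighbors in the published list and the 3 most alike probes. The members and lists were chosen with earlier results of these data known.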

Additional observations from a re-analysis of the deposited data

Results flagged for a closer look

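In the measures listed here, every array of the 3d group lay on one side of the sham mean and every array of the 7d group on the other. In IP of Srebf2 circRNA and in the level of Maml2 circRNA this did not hold, because 1 of the 7d arrays lay on the side of the 3d arrays. The difference between these movements was not tested, because it is the contrast on which the pair was selected. The share of all tested probes with such an arrangement of arrays was not counted. For Srebf2 circRNA, the mean difference from sham on the log2 scale was -1.19 at 3 days and 0.40 at 7 days in the level, 2.66 and -0.39 in expression, and 2.96 and -0.48 in Sup. For Maml2 circRNA it was -0.996 and 0.542 in expression, -0.33 and 0.17 in IP, and -1.08 and 0.62 in Sup. The sham mean includes sham replicate 3, without which the 7d differences in level and expression of both circRNAs changed sign. Groups of 3 arrays are too small for an outlier test.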

How the results depend on the processing

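The alternatives re-use the arrays and the contrast of the selection, so that a kept direction is no independent support. Across them, the 7d vs. 3d difference kept its direction for both circRNAs in level, expression, IP and Sup. With the channels centered on the median circRNA, all spike-in probes, loess with Aquantile, the processed signals or the deposited values, that in the level of Srebf2 circRNA was 1.18, 1.16, 1.07, 2.00 and 2.01 (1.60 as reported). With the processed signals or the deposited values it was -1.44 and -1.43 in the level of Maml2 circRNA. In expression, loess, the processed signals and the deposited values gave -2.42, -3.65 and -3.63 for Srebf2 circRNA and 1.92, 2.11 and 2.12 for Maml2 circRNA. In Sup, the processed signals and the deposited values gave -4.10 and -4.09 for Srebf2 circRNA (-3.44 as reported) and 2.25 and 2.26 for Maml2 circRNA (1.69), for which loess gave 2.34. In IP, normexp without an offset gave -1.96 for Srebf2 circRNA (-1.45) and 0.76 for Maml2 circRNA (0.50), for which median centering gave 0.24.

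In MCAO vs. sham, expression of Srebf2 circRNA was no longer called with median centering (0.83), no background correction (1.07) or normexp without an offset (1.24). The same held for the processed signals (1.25), the deposited values (1.26) and the methods' test (1.47). The methods' test took both days as a single group, so that the difference between the days counted as spread. The level of Maml2 circRNA turned to -0.043 with the processed signals and to -0.045 with the deposited values, and its IP to 0.037 with loess. Leaving out one array at a time gave a range from -0.95 to -0.071 in the level and from 0.69 to 1.90 in expression of Srebf2 circRNA. For Maml2 circRNA the ranges were -0.17 to 0.69 in the level, -1.02 to 0.21 in expression, -0.33 to 0.14 in IP and -1.11 to 0.25 in Sup, and the signs turned without sham replicate 1 and, except in IP, without sham replicate 2. Of 22 alternatives, the calls of Srebf2 circRNA were lost in 8 in expression, 8 in Sup and 2 in IP. The causes were not tested.

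The number of called probes ranged from 7 to 578 in the level (38 as reported), 44 to 1157 in expression (107), 117 to 1406 in IP (276) and 24 to 1633 in Sup (87). The fewest came from the methods' test, or from loess in IP, and the most came from normexp without an offset in the level, the processed signals in IP and the deposited values otherwise.

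Deviations of arrays of the same number correlated between -0.013 and 0.46 in the level (median 0.21, against -0.13 for different numbers) and between -0.60 and 0.56 in expression. As some correlations were not over 0.1, the numbers were not taken as pairs. They are those of the titles, and the descriptions of 7d replicates 2 and 3 and sham replicate 3 carry others. With the number as a replicate block, expression of Srebf2 circRNA differed by 1.13 (adjusted P = 0.579 in limma), no call changed, and 43, 108, 275 and 91 probes were called in level, expression, IP and Sup. The number of arrays and the dim IP signal limit what can be seen.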
